A study of Mus musculus with 6 samples.

Results

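The AP-1 and EGR immediate early factors were followed here as 10 genes, Fos, Fosb, Fosl2, Jun, Junb, Jund, Egr1, Egr2, Egr3 and Ier2, of the 55414 genes in the deposited table. They were taken by name, and all 10 passed the filter on low counts that left 23003 genes for testing. The cells were CD8+ T cells of OT-I mice, whose transgenic T cell receptor recognises an ovalbumin peptide. They came from spleen and lymph nodes according to the sample labels, while the design text names spleens only. The N4 group was taken 4 days after stimulation with N4, the ovalbumin peptide itself, and the T4 group 4 days after T4, an altered form of it that activates the same receptor more weakly. Both peptides were given with anti-OX40 and anti-41BB, antibodies that engage costimulatory receptors. The third group was naive OT-I cells. Each group held 2 libraries of polyadenylated RNA, 6 in all, all of OT-I genotype. The labels name no other allele, and give neither age, sex nor sorting gate. They do not say that the libraries of a group came from separate mice, so the p-values reflect only how far these libraries vary, a variation that can be technical.

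Immediate early genes are transcribed within minutes of a receptor signal and need no new protein to be made first, because the factors that switch them on, SRF with its ternary complex partners and CREB, already sit in the cell and are modified by MAP kinases. In T cells the FOS and JUN proteins pair as AP-1 dimers, which bind DNA beside NFAT at cytokine genes, while the zinc-finger EGR proteins bind GC-rich sites and take part both in activation and in tolerance. These transcripts usually decay quickly, so their level reads recent signalling or stress rather than a past event; handling of tissue is also known to raise them.

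Promoter sequences are shown because SRF, CREB, AP-1 and EGR sites are the known elements of immediate early promoters. The 250 bases before the RefSeq start of 5 of the genes are given here because their start lies within 30 bases of the start of the leading transcript in these data. RefSeq windows on GRCm38.p6 were used for 7 of the 10 genes. Egr1 was left out of the search, and no window was available for Egr3 and Ier2. The windows are chr12:85473640-85473889 on the plus strand for Fos, chr7:19310046-19310295 on the minus strand for Fosb, chr4:95052223-95052472 on the minus strand for Jun, chr8:84978749-84978998 on the minus strand for Junb, and chr10:67537619-67537868 on the plus strand for Egr2. Each reads 5′ to 3′ along the gene and ends at the base before the start. Capitals mark matches on either strand to TGACG, the core of a CREB site; TGACNTCA, a full CREB or ATF site, which holds TGACG where N is G; TGANTCA, the AP-1 site; the CArG box bound by SRF; GCGNGGGCG, the EGR site; and TATAAA.
Fos: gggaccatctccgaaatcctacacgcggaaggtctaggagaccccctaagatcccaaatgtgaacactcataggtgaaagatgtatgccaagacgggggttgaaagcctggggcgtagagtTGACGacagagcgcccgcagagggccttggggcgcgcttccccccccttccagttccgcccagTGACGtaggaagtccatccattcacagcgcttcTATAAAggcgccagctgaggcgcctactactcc
Fosb: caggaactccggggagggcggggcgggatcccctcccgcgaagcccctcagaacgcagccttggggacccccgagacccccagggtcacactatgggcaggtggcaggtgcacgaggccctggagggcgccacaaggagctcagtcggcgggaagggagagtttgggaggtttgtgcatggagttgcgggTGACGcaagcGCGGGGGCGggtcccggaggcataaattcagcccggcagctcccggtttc
Jun: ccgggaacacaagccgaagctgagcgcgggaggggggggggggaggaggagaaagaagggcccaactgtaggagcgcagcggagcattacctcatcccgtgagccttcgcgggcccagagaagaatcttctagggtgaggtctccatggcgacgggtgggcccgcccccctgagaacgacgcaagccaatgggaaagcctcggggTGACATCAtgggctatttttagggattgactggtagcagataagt
Junb: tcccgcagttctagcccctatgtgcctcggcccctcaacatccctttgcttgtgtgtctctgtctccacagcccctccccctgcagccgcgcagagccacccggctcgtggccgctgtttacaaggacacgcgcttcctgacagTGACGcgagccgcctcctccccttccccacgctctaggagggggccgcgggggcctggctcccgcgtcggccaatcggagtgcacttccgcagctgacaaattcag
Egr2: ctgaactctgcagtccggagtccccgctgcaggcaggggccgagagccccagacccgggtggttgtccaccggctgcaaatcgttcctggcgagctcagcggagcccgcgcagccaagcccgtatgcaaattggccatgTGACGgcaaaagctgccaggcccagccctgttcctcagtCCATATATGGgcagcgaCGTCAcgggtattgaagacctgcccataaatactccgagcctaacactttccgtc
A TGACG core was present in 4 of the 7 windows, those of Fos, Fosb, Junb and Egr2, against 17.8% of all 32841 RefSeq windows of this length. Fos held it at 129 to 125 and at 66 to 62 bases before the start, with TATAAA at 33 to 28. Egr2 held the only CArG box of the 7, CCATATATGG, at 72 to 63 bases before its start, between a TGACG on the plus strand and one on the minus strand; 1.47% of all windows have such a box. Jun held TGACATCA at 45 to 38 bases before its start, a full site that 7.49% of all windows have. Fosb and Fosl2 each held GCGGGGGCG, the EGR site of 4.7% of windows. The AP-1 site itself was in none of the 7 windows and in 6.75% of all windows. The windows of Fosl2 and Jund lie away from the start of their leading transcript, so they are not shown. These are matches of letters and were not tested as binding sites. Bases farther than 250 before the start were not searched in any gene. A motif missing from a window can therefore still lie farther upstream, and the promoters of Egr1, Egr3 and Ier2 were not searched at all.

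Values are CPM, estimated counts scaled to a common total by library totals and TMM factors, with the SD over n = 2. Library totals ran from 269033066 to 335968843 estimated counts. TMM factors were 0.8207 and 0.6412 in N4 libraries, 1.36 and 1.283 in T4 libraries, and 1.307 and 0.8332 in naive libraries. Genes above 0 numbered 21579 and 21317 in N4 libraries, 27147 and 27098 in T4 libraries, and 24280 and 23871 in naive libraries. Changes are log2 fold changes with their standard errors, tested with edgeR's quasi-likelihood test across all 23003 genes with Benjamini-Hochberg adjustment and called at an adjusted p below 0.05; an exact permutation test of 2 against 2 libraries could not go below p = 0.33. The libraries were not equal in their content of other cells. Summed T cell markers were lowest in the T4 libraries and highest in naive replicate 2, at 5152 and 6504 CPM in N4 libraries, 4353 and 4645 CPM in T4 libraries, and 6228 and 7882 CPM in naive libraries. The 12 macrophage and monocyte markers summed to 20.7 and 16.9 CPM in N4 libraries, 270.0 and 257 CPM in T4 libraries, and 2244 and 2669 CPM in naive libraries. Neutrophil markers reached 25302 CPM in naive replicate 2 and 2470.0 CPM in naive replicate 1, against 8.71 to 49.2 CPM in the stimulated libraries. In such bulk libraries fewer cells of a type and less RNA per cell cannot be told apart.

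Cells taken 4 days after N4 had lower Fos, Fosb, Jun, Junb, Egr1 and Ier2 than cells taken 4 days after T4, by 3.23-fold for Junb to 33.0-fold for Fos. These were 6 of the 10 genes, where 4.47% of all genes tested were lower. None of the 10 was higher in N4, where 3.48% of all genes were. At an unadjusted p below 0.05 the counts were 7 lower and 0 higher, and DESeq2's Wald test also called 7 lower and 0 higher. Fosl2, Jund, Egr2 and Egr3 did not pass in any of the 3 comparisons. The median log2 fold change of the 10 genes was -1.93, beside -0.20 over all genes, and 8 of the 10 had no overlap between N4 and T4 libraries, as did 65.2% of all genes.

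**Figure D1:**
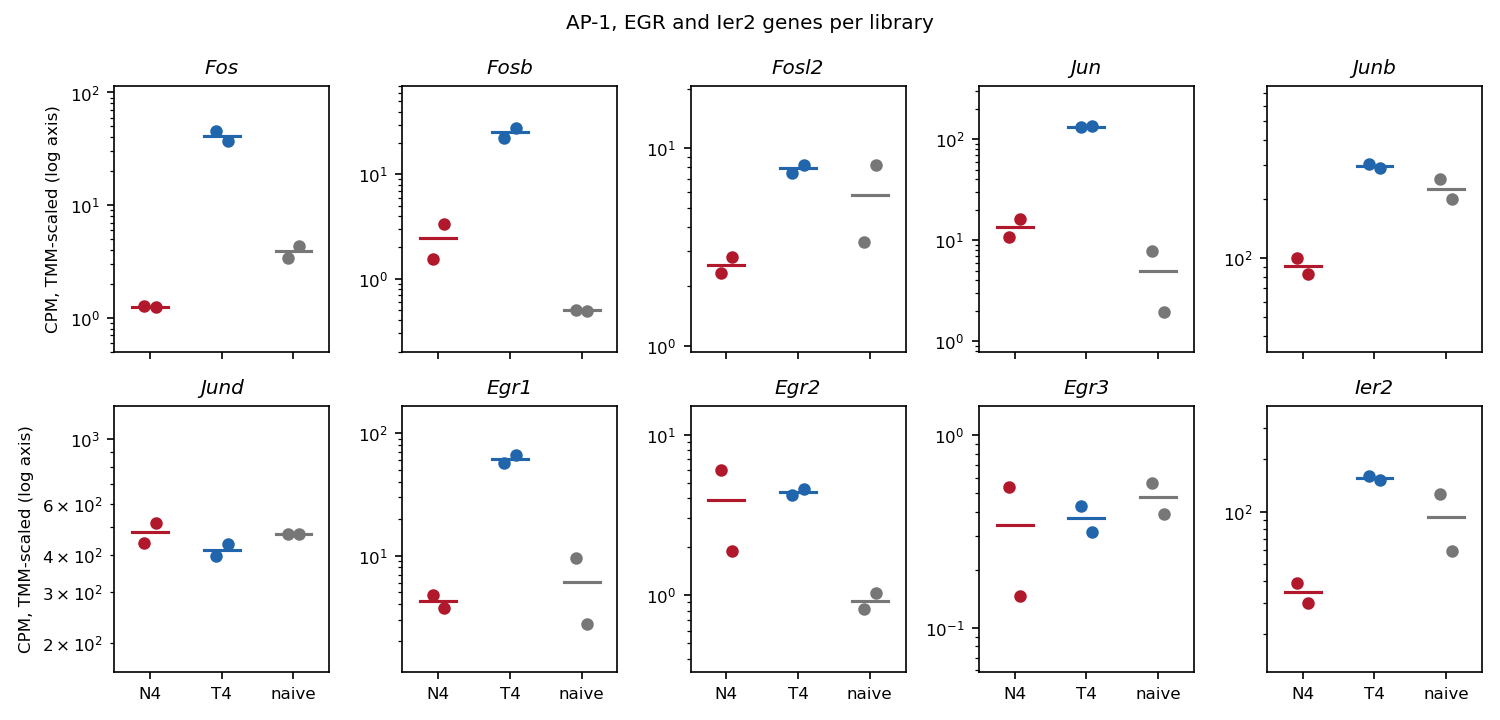
CPM of each of the 10 genes (log axis) in N4, T4 and naive libraries; each point is 1 library and each line the mean of 2. Fos, Fosb, Jun, Junb, Egr1 and Ier2 are highest in both T4 libraries, while Jund lies between 397 and 517 CPM in all 6.

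Among the FOS genes, whose proteins cannot pair with themselves and need a JUN partner, Fos had 1.26 and 1.25 CPM in N4 libraries, 45.7 and 37.1 CPM in T4 libraries, and 3.40 and 4.38 CPM in naive libraries. The 3 groups did not overlap, with T4 highest and N4 below naive. Fos was 33.0-fold lower in N4 than in T4 (log2 fold change -5.04 ± 0.31, edgeR adjusted p = 0.013). It was 10.6-fold higher in T4 than in naive cells (3.41 ± 0.28, edgeR adjusted p = 0.047), and 3.10-fold lower in N4 than in naive cells (-1.63 ± 0.27, edgeR adjusted p = 0.019).

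Fosb, the gene of a FOS protein that is also made in a short form, had 1.54 and 3.35 CPM in N4 libraries, 22.6 and 28.1 CPM in T4 libraries, and 0.499 and 0.496 CPM in naive libraries. Here too no groups overlapped, but the order differed from that of Fos: N4 lay above naive. Fosb was 4.91-fold higher in N4 than in naive cells (log2 fold change 2.29 ± 0.43, edgeR adjusted p = 0.026) and 50.9-fold higher in T4 than in naive cells (5.67 ± 0.49, edgeR adjusted p = 0.047). These are counts of the whole gene. In the N4 libraries 63.4% and 93.6% of them fell on Fosb-204, a transcript annotated as a retained intron. The coding transcript was not tested alone. Between the stimulated groups the whole Fosb gene was 10.4-fold lower in N4 (-3.38 ± 0.44, edgeR adjusted p = 0.023). Fosl2, the gene of FRA-2, had 2.32 and 2.80 CPM in N4 libraries, 7.52 and 8.26 CPM in T4 libraries, and 3.35 and 8.21 CPM in naive libraries. Its N4 libraries were lowest and its naive libraries spread almost over the whole range, and no comparison passed (N4 against T4 -1.62 ± 0.47, edgeR adjusted p = 0.083).

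Among the JUN genes, whose proteins pair with FOS, with BATF or with each other, Jun had 10.9 and 16.1 CPM in N4 libraries, 132 and 135 CPM in T4 libraries, and 7.86 and 1.95 CPM in naive libraries. No groups overlapped, and the 2 naive libraries differed from each other more than the T4 libraries did. Jun was 9.89-fold lower in N4 than in T4 (log2 fold change -3.31 ± 0.67, edgeR adjusted p = 0.042). Its 27.2-fold difference between T4 and naive cells did not pass (4.77 ± 0.72, edgeR adjusted p = 0.076), nor did N4 against naive (1.46 ± 0.63, edgeR adjusted p = 0.18).

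Junb, the gene of a JUN protein that T cells carry at rest and after activation, had 100.1 and 82.8 CPM in N4 libraries, 303 and 289 CPM in T4 libraries, and 253 and 199 CPM in naive libraries. The N4 libraries stood below all others, and T4 above naive by little. Junb was 3.23-fold lower in N4 than in T4 (log2 fold change -1.69 ± 0.26, edgeR adjusted p = 0.026) and lower in N4 than in naive cells (-1.31 ± 0.25, edgeR adjusted p = 0.029). T4 against naive did not pass (0.39 ± 0.25, edgeR adjusted p = 0.55). The Junb locus overlaps the protein-coding gene Prdx2 on the other strand, and the library kit does not mark strand, so reads of the shared stretch cannot be assigned with certainty. Jun and Jund likewise overlap antisense genes, Junos and Gm11175.

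Jund, the JUN gene that is transcribed in resting cells rather than induced, had 440.2 and 517 CPM in N4 libraries, 397 and 436 CPM in T4 libraries, and 474 CPM in both naive libraries. The groups lay within a narrow range and the difference between N4 and T4, 0.20 ± 0.23 on the log2 scale, had an edgeR adjusted p of 0.63. Its sign depends on the scaling: by library totals alone Jund was at -0.67 in N4 against T4, where the median of all genes was at -1.05. With that scaling the all-gene medians were -0.65 for N4 against naive and 0.30 for T4 against naive, and the 6 genes lower in N4 than T4 lay below the all-gene median under either scaling.

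Of the EGR genes, Egr1, the member most widely used as a readout of MAP kinase signalling, had 4.75 and 3.73 CPM in N4 libraries, 57.4 and 66.0 CPM in T4 libraries, and 9.504 and 2.78 CPM in naive libraries. Both T4 libraries stood far above the rest, while the N4 libraries lay between the 2 naive ones. Egr1 was 14.6-fold lower in N4 than in T4 (log2 fold change -3.86 ± 0.61, edgeR adjusted p = 0.028). T4 against naive, 3.33 ± 0.60, did not pass (edgeR adjusted p = 0.099).

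Egr2 and Egr3, whose proteins restrain T cell responses and are linked to anergy, did not share this pattern. Egr2 had 6.001 and 1.87 CPM in N4 libraries, 4.18 and 4.57 CPM in T4 libraries, and 0.822 and 1.02 CPM in naive libraries. All 4 stimulated libraries were above both naive libraries, but neither N4 (log2 fold change 2.09 ± 0.59, edgeR adjusted p = 0.072) nor T4 (2.24 ± 0.59, edgeR adjusted p = 0.18) passed against naive. Egr3 had 0.539 and 0.147 CPM in N4 libraries, 0.431 and 0.313 CPM in T4 libraries, and 0.565 and 0.388 CPM in naive libraries, which is 30 to 248 estimated counts, and all groups overlapped.

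Ier2, the gene of a small nuclear protein induced with FOS and JUN, had 38.9 and 30.2 CPM in N4 libraries, 159.7 and 152 CPM in T4 libraries, and 127 and 59.4 CPM in naive libraries. The groups did not overlap, though the naive libraries lay far apart. Ier2 was 4.51-fold lower in N4 than in T4 (log2 fold change -2.17 ± 0.40, edgeR adjusted p = 0.036), and lay at -1.43 ± 0.40 in N4 against naive without passing (edgeR adjusted p = 0.069).

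**Figure D2:**
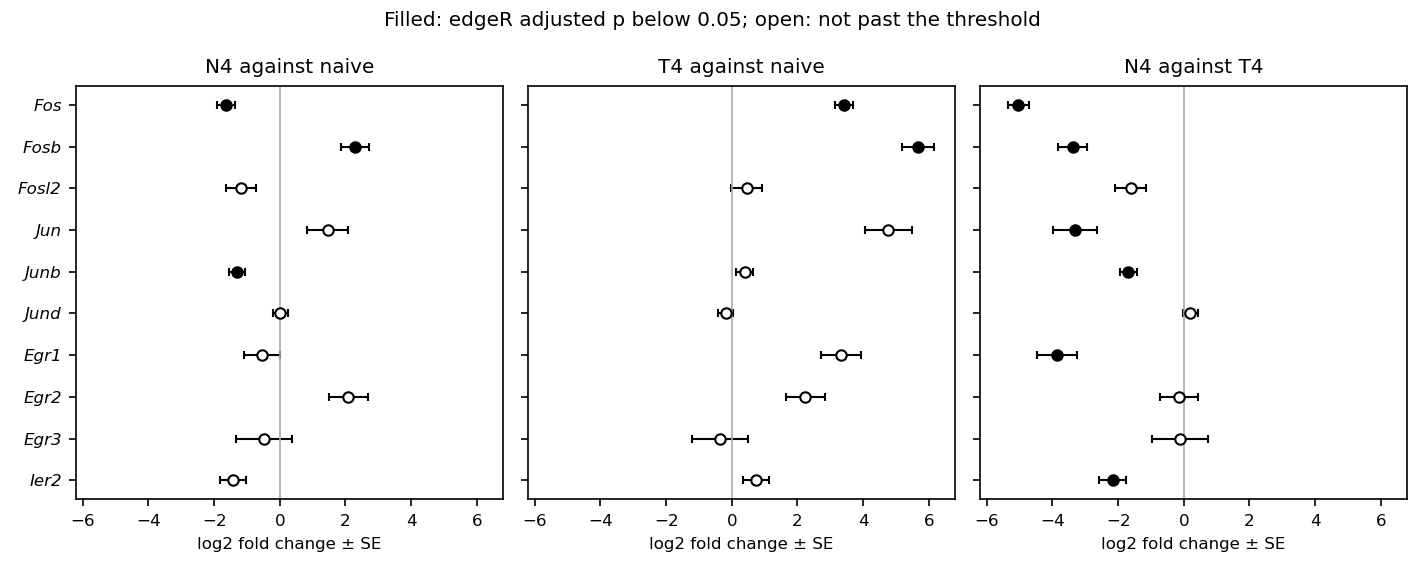
Log2 fold change with its standard error of the 10 genes in N4 against naive, T4 against naive and N4 against T4; filled points have an edgeR adjusted p below 0.05. Fosb is the gene above 0 and past the threshold against naive in both stimulated groups, and 6 filled points lie below 0 in N4 against T4.

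The comparisons with naive cells gave fewer calls. Against naive cells, N4 cells had 1 higher gene of the 10, Fosb, and 2 lower ones, Fos and Junb, where 4.87% of all genes were higher and 7.18% lower. The median of the 10 was -0.51, beside -0.09 over all genes, and 7 had no overlap, as did 55.4% of all genes. T4 cells had 2 higher genes, Fos and Fosb, where 0.0826% of all genes, or 19, were higher. No member was lower in T4 than in naive cells, where 0.0348% of all genes, or 8, were. At an unadjusted p below 0.05, 5 members were higher and 0 lower in T4, and DESeq2's Wald test likewise called 5 and 0. The median of the 10 was 1.49 in T4 against naive, beside 0.00 over all genes, and 8 had no overlap, as did 48.8% of all genes. The comparisons share libraries, so their values are given side by side and not as support for one another.

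The calls are close to the limit of a design of 2 libraries a group. Fos and Fosb in T4 against naive lost their calls with DESeq2 size factors and with GC content offsets, where no gene of the whole table passed. Their log2 fold changes were 3.35 and 3.30 for Fos (edgeR adjusted p = 0.051 in both) and 5.61 and 5.54 for Fosb (edgeR adjusted p = 0.051 and 0.06), and under 13 alternatives the adjusted p ran to 0.25 for each. In N4 against T4, Jun (-2.83, edgeR adjusted p = 0.056) and Junb (-0.91, edgeR adjusted p = 0.084) lost theirs with GC content offsets; leaving out N4 replicate 2 or T4 replicate 2 left 0 members and 0 genes past the threshold, leaving out N4 replicate 1 left 2 members and T4 replicate 1 left 1, and leaving out either naive library gave 7. The calls of the other lists in N4 against T4 were lost in those 2 fits too. Each such fit leaves 1 library in a group, so a lost call cannot show that a difference rests on the library left out. The log2 fold changes of the 6 genes stayed below 0 in all 13 alternatives. They ran from -5.90 to -4.87 for Fos and from -2.53 to -0.91 for Junb. Leaving out any of the 4 stimulated libraries left 0 genes in T4 against naive. In N4 against naive, Fos and Junb lost their calls without any of those 4 libraries, and Fosb without N4 replicate 2, either T4 library or naive replicate 1, with edgeR adjusted p from 0.054 to 0.16. Leaving out either naive library gave 4 higher members in T4 against naive, with Jun and Egr1 among them: Jun was at 6.01 without naive replicate 1 (edgeR adjusted p = 0.0078) and at 4.08 without naive replicate 2 (edgeR adjusted p = 0.019). N4 against naive had 1 higher and 3 lower without naive replicate 1, and 1 higher and 4 lower without naive replicate 2, the library with the high neutrophil markers.

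The make-up of the AP-1 pool was compared per length, as the share of the TPM (counts divided by transcript length and scaled to a common total) of the 6 FOS and JUN genes within each library. Jund made up 83.4% ± 2.81 of the pool in N4 cells, 51.5% ± 2.32 in T4 cells and 68.8% ± 3.58 in naive cells (SD, n = 2 each). Junb made up 14.9% ± 3.13 in N4 cells, 34.0% ± 1.82 in T4 cells and 30.1% ± 3.52 in naive cells. The share of Jund was highest in both N4 libraries and lowest in both T4 libraries. Jun was 1.22% ± 0.243 in N4 cells, 8.63% ± 0.0249 in T4 cells and 0.363% ± 0.297 in naive cells. The FOS genes together were 0.497% ± 0.0777 in N4 cells, 5.95% ± 0.472 in T4 cells and 0.740% ± 0.238 in naive cells, so that even in T4 cells the JUN genes outweighed the FOS genes 15.9-fold by TPM, against 203-fold in N4 and 142-fold in naive cells. These shares were not tested. Over all 10 genes, Jund, Junb and Ier2 ranked 1, 2 and 3 by TPM in every library. In T4 cells the order went on with Jun, Fos, Egr1, Fosb, Egr2, Fosl2 and Egr3 in both libraries, while the 2 N4 libraries differed in order below rank 4 and the 2 naive libraries below rank 3.

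**Figure D3:**
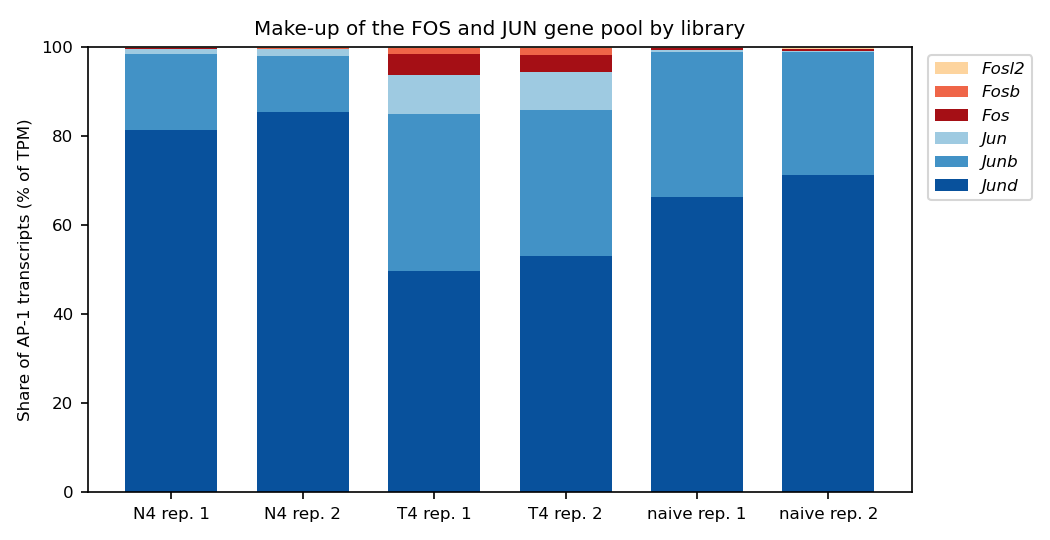
Percent of the summed TPM of Fos, Fosb, Fosl2, Jun, Junb and Jund taken by each gene, 1 bar per library. Fos and Jun are visible bands in the 2 T4 bars, where Jund falls to 49.8% and 53.1%, and thin lines in the 4 others.

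The transcripts behind the gene counts differed in how settled they were. Fos-201, the coding transcript of 4 exons, held 98.6% ± 2.03 of Fos counts in N4 cells, 96.7% ± 0.288 in T4 cells and 97.6% ± 2.26 in naive cells (SD, n = 2 each). Fosb counts fell on 2 transcripts, the coding Fosb-201 and Fosb-204, a single-exon transcript annotated as a retained intron. Fosb-201 held 36.6% and 6.41% of Fosb counts in N4 libraries (95% Clopper-Pearson limits of 31.4 to 42.0 and of 4.70 to 8.52), 74.6% and 43.1% in T4 libraries (limits of 73.7 to 75.5 and of 42.2 to 44.1), and 6.39% and 69.4% in naive libraries (limits of 3.54 to 10.5 and of 60.4 to 77.3). These intervals cover counting error only, and the libraries of 1 group differed as much as the groups did. Fosb-201 itself had 124 and 44 estimated counts in N4 libraries and 14 and 86 in naive libraries, which overlap. The higher Fosb of N4 against naive cells is therefore a result for the gene and was not shown for its coding transcript. Egr3 counts were all on Egr3-202, a single-exon transcript annotated as a retained intron, in the N4 and naive libraries, whereas it held 86.8% and 33.9% in the T4 libraries. Coding transcripts held 13.2% in T4 replicate 1, all of it Egr3-201, and 63.6% in T4 replicate 2, split between Egr3-201 at 30.6% and another coding transcript at 33.1%, so the T4 libraries differed widely. The 30 and 119 Egr3 counts of the N4 libraries allow a share of Egr3-201 of up to 11.6% and 3.05% (exact upper bounds). Single-exon models cannot be told from unspliced RNA or DNA in these tables. The leading transcripts of Jun, Junb, Jund and Ier2 also have 1 exon, so this limit holds for them too. Jun, Junb and Ier2 are among the genes called lower in N4 than in T4.

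Other genes of the first wave of transcription were also lower in N4 than in T4 cells. The list of 28 other immediate early genes had 7 lower and 0 higher in N4 against T4, with a median of -0.91 beside -0.20 over all genes, and 27 of 28 below 0. Among all genes, 4.47% were lower and 3.48% higher. At an unadjusted p below 0.05, 13 were lower and 0 higher, and DESeq2's Wald test called the same numbers. Zfp36, which encodes an RNA-binding protein that speeds decay of AU-rich transcripts such as those of cytokines, had 25.2 and 22.1 CPM in N4 libraries, 179 and 196 CPM in T4 libraries, and 165 and 140.0 CPM in naive libraries (N4 against T4 -2.99 ± 0.25, edgeR adjusted p = 0.013). Dusp1, a phosphatase that switches off MAP kinases, had 4.82 and 7.09 CPM in N4 libraries, 93.0 and 96.1 CPM in T4 libraries, and 22.2 and 76.7 CPM in naive libraries (N4 against T4 -3.99 ± 0.64, edgeR adjusted p = 0.028). Both were lowest in N4, Zfp36 by a wide gap. Zfp36l1, a relative of Zfp36 (-1.92, edgeR adjusted p = 0.025), and Ppp1r15a, a regulator of the stress response of translation (-3.04, edgeR adjusted p = 0.032), were lower as well, and Btg2, Tnfaip3 and Ier5 made up the 7. Gadd45b, named after its value was seen, was the 1 gene above 0, at 0.68 (edgeR adjusted p = 0.20).

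Against naive cells the same list was divided in N4, with 2 higher and 7 lower and a median of -0.61. Among all genes, 4.87% were higher and 7.18% lower, with a median of -0.09. In a list of this size, 2 higher genes cannot be told from that share. The higher genes were the orphan nuclear receptors Nr4a2 (log2 fold change 3.01, edgeR adjusted p = 0.013) and Nr4a3 (2.59, edgeR adjusted p = 0.019), and the lower ones included Zfp36 (-2.69, edgeR adjusted p = 0.0076) and Zfp36l1 (-2.14, edgeR adjusted p = 0.012). Nr4a2 had 6.57 and 5.35 CPM in N4 libraries, 5.19 and 6.89 CPM in T4 libraries, and 0.551 and 0.933 CPM in naive libraries, so that N4 and T4 overlapped and both lay above naive. In T4 against naive, edgeR called 0 of 28, with 8 higher and 1 lower at an unadjusted p below 0.05 and 6 higher and 1 lower by DESeq2; Nr4a3 (4.07, edgeR adjusted p = 0.055) and Nr4a2 (3.03, edgeR adjusted p = 0.066) had the smallest p. Nr4a1, the relative most often used to report receptor signalling and named after its values were seen, had 13.5 and 3.05 CPM in N4 libraries, 8.75 and 9.65 CPM in T4 libraries, and 14.3 and 8.04 CPM in naive libraries, with all groups overlapping.

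**Figure D4:**
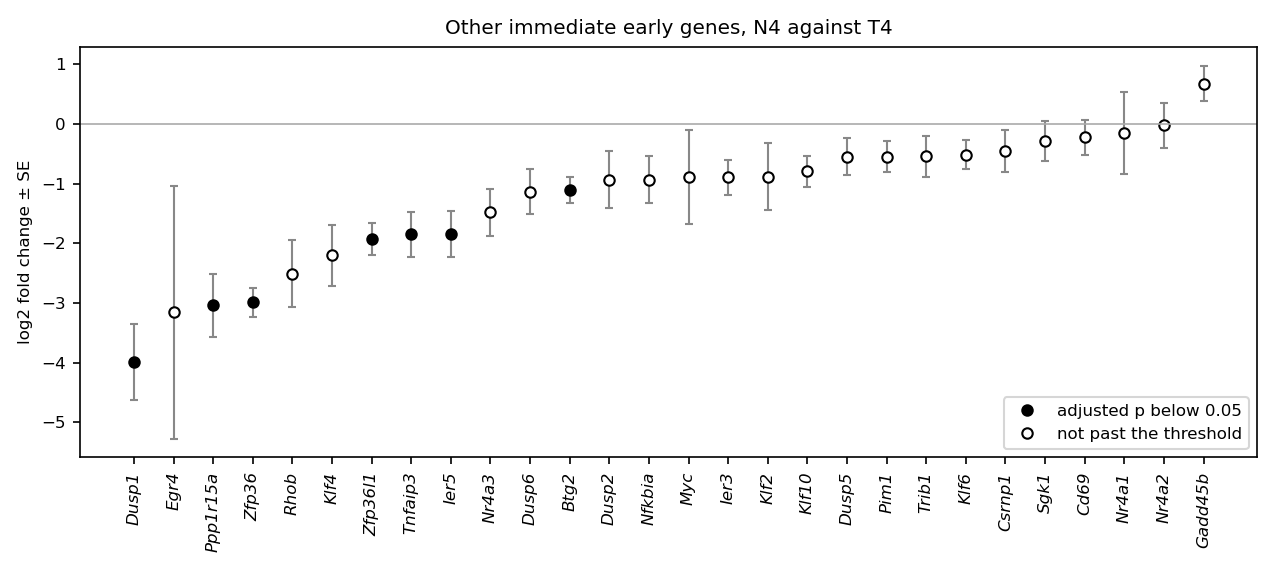
Log2 fold change in N4 against T4 with its standard error for the 28 other immediate early genes, in rising order; filled points have an edgeR adjusted p below 0.05. The 7 filled points all lie below 0, and 27 of the 28 points do.

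Few genes of the upstream pathway, or of the other bZIP proteins that can join AP-1, passed the test. Few of all genes did either. In N4 against T4, 3.48% of all genes were higher and 4.47% lower. The shares were 4.87% and 7.18% in N4 against naive, and 0.0826% and 0.0348% in T4 against naive. In lists of this size the counts below cannot be told from these shares. Of 24 genes from the receptor to SRF, 1 was higher and 0 lower in N4 against T4, with a median of 0.02 (unadjusted p below 0.05 in 5 and 4, DESeq2 4 and 2); the 1 was Crem, which encodes activators and repressors at CREB sites (29.2 and 34.4 CPM in N4 libraries, 6.82 and 10.4 CPM in T4 libraries, 12.0 and 18.8 CPM in naive libraries; 1.88, edgeR adjusted p = 0.035), and its call was lost by library total scaling and by GC content offsets. Against naive cells, Mapk14, the p38 kinase, was lower in N4 (-1.30, edgeR adjusted p = 0.028). In T4 against naive, edgeR called 0 of 24 (unadjusted p below 0.05 in 1 higher and 3 lower, DESeq2 0 and 1). Of 12 other bZIP genes, 1 was higher and 0 lower in N4 against T4 (unadjusted 1 and 3, DESeq2 1 and 2), with a median of -0.25. This was Batf3, a small bZIP protein that pairs with JUN in place of FOS, with 14.1 and 20.0 CPM in N4 libraries, 4.36 and 3.74 CPM in T4 libraries, and 9.62 and 5.29 CPM in naive libraries (2.07 ± 0.39, edgeR adjusted p = 0.036). Its N4 libraries were the highest and its T4 libraries the lowest, the reverse of the order of Fos; with scaling by library totals the Batf3 call did not hold. Its relative Batf, named after its values were seen, had 109 and 98.9 CPM in N4 libraries, 110.3 and 98.4 CPM in T4 libraries, and 57.2 and 73.0 CPM in naive libraries. Against naive cells edgeR called 0 of the 12 bZIP genes in N4 (unadjusted 4 higher and 1 lower, DESeq2 2 and 1) and 0 in T4 (unadjusted 4 and 0, DESeq2 3 and 0).

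Some genes that AP-1 proteins are known to act on were higher in N4 than in T4 cells, where Fos and Jun were lower. The 10 cytokine and effector genes with AP-1 sites had 3 higher and 0 lower in N4 against T4, with a median of 2.66. Among all genes, 3.48% were higher and 4.47% lower, with a median of -0.20. Il2ra, the high-affinity chain of the IL-2 receptor, had 21.8 and 18.8 CPM in N4 libraries, 0.914 and 0.452 CPM in T4 libraries, and 0.761 and 0.661 CPM in naive libraries (N4 against T4 4.89 ± 0.45, edgeR adjusted p = 0.014). Gzmb, the cytotoxic granule protease, had 423 and 487 CPM in N4 libraries, 39.4 and 38.4 CPM in T4 libraries, and 19.0 and 71.9 CPM in naive libraries (3.55 ± 0.64, edgeR adjusted p = 0.034). Ifng, interferon gamma, was the third (2.67 ± 0.59, edgeR adjusted p = 0.049). For each of these 3, both N4 libraries stood above all others; 2 calls were left by library totals, with DESeq2 size factors and with GC content offsets. The same 3 were higher in N4 than in naive cells, where 4.87% of all genes were. In T4 against naive edgeR called 0 of 10 (unadjusted 2 higher and 1 lower, DESeq2 1 and 1).

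Of 14 EGR co-repressors and genes reported as EGR2 or EGR3 targets, 3 were higher and 0 lower in N4 against naive, with a median of 0.45: Lag3, an inhibitory receptor (2.62, edgeR adjusted p = 0.016), Nab1, a co-repressor of EGR proteins (1.60, edgeR adjusted p = 0.025), and Nrn1 (3.36, edgeR adjusted p = 0.044). Among all genes, 4.87% were higher and 7.18% lower, with a median of -0.09. Lag3 had 13.0 and 9.31 CPM in N4 libraries, 17.6 and 15.2 CPM in T4 libraries, and 2.32 and 1.297 CPM in naive libraries, above naive in all 4 stimulated libraries like Egr2, though T4 against naive did not pass (3.18, edgeR adjusted p = 0.062). EdgeR called 0 of the 14 in T4 against naive (unadjusted 4 higher and 1 lower, DESeq2 2 and 1) and 0 in N4 against T4 (unadjusted 1 and 0, DESeq2 1 and 0). With scaling by library totals the median of the list in N4 against naive was -0.17, beside -0.65 over all genes, and 1 of the 3 calls was left.

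Heat shock genes, a readout of protein stress, were looked at because stress also induces FOS and JUN. Hspa1b, an inducible HSP70 gene, had 8.43 and 11.8 CPM in N4 libraries, 74.3 and 76.3 CPM in T4 libraries, and 1.86 and 3.72 CPM in naive libraries. It was lower in N4 than in T4 (-2.90 ± 0.41, edgeR adjusted p = 0.025) and higher in T4 than in naive cells (4.76 ± 0.44, edgeR adjusted p = 0.047), and also higher in N4 than in naive cells (1.86 ± 0.39, edgeR adjusted p = 0.036). Hspa1a, a near-identical copy whose reads can be confused with those of Hspa1b, was also lower in N4 than in T4 (-3.29 ± 0.56, edgeR adjusted p = 0.031), and Hspb1 was at 0 in both N4 libraries, against 0.334 and 0.579 CPM in T4 libraries. These 3 were the lower genes of the 10 on the list, 0 were higher (unadjusted 1, DESeq2 1), and the median was -0.23, also with Hspb1 set to a floor of 3 counts per library; with GC content offsets 0 of the 3 calls were left (Hspa1b included). In N4 against naive, 2 of the 10 were higher, Hspa1b and Hsp90aa1, and 1 lower, Hspb1, with a median of 0.97 (unadjusted 5 higher and 2 lower, DESeq2 4 and 1). In T4 against naive, Hspa1b was the 1 higher gene and 0 were lower (unadjusted 3 and 0, DESeq2 3 and 0), with a median of 0.54. The shares of all genes higher and lower were 3.48% and 4.47% in N4 against T4. They were 4.87% and 7.18% in N4 against naive, and 0.0826% and 0.0348% in T4 against naive. Summed over the list, the level was 2772 and 2494 CPM in N4 libraries and 1607 and 1576 CPM in T4 libraries. In naive libraries it was 994 and 1689.7 CPM. Hspa1b was a small part of this sum in every library, so the sum mostly reflects other genes of the list. The part of stress in the levels of the AP-1 genes was not tested.

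Markers of several other cell types were also lower in N4 than in T4 cells. Lower in N4 than in T4 were 4 of 12 macrophage and monocyte markers, 5 of 9 B cell markers, 3 of 10 dendritic cell markers, 5 of 7 erythroid markers and 4 of 6 natural killer cell markers. Among all genes tested, 4.47% were lower and 3.48% higher. Of 10 neutrophil markers 1 was lower, with 5 above and 5 below 0, and of 7 stromal and endothelial markers 1 was lower; of 4 markers of CD4 and regulatory T cells edgeR called 0 (unadjusted 1 higher and 0 lower, DESeq2 1 and 0). Adgre1, Spic, Mertk, Pax5 and Alas2 were among those at 0 in both N4 libraries. Erythroid markers summed to 423 and 359.8 CPM in N4 libraries, 6511 and 8124 CPM in T4 libraries, and 3447 and 9232.5 CPM in naive libraries. Dendritic cell markers summed to 88.9 and 66.4 CPM in N4 libraries, 570.4 and 554 CPM in T4 libraries, and 2104 and 1335 CPM in naive libraries. The sums for macrophages, neutrophils, dendritic cells and natural killer cells were lower in both T4 libraries than in both naive ones, while those for B cells and erythroid cells overlapped between T4 and naive libraries. The part of other cells in the differences of the AP-1 and EGR genes was not tested.

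**Figure D5:**
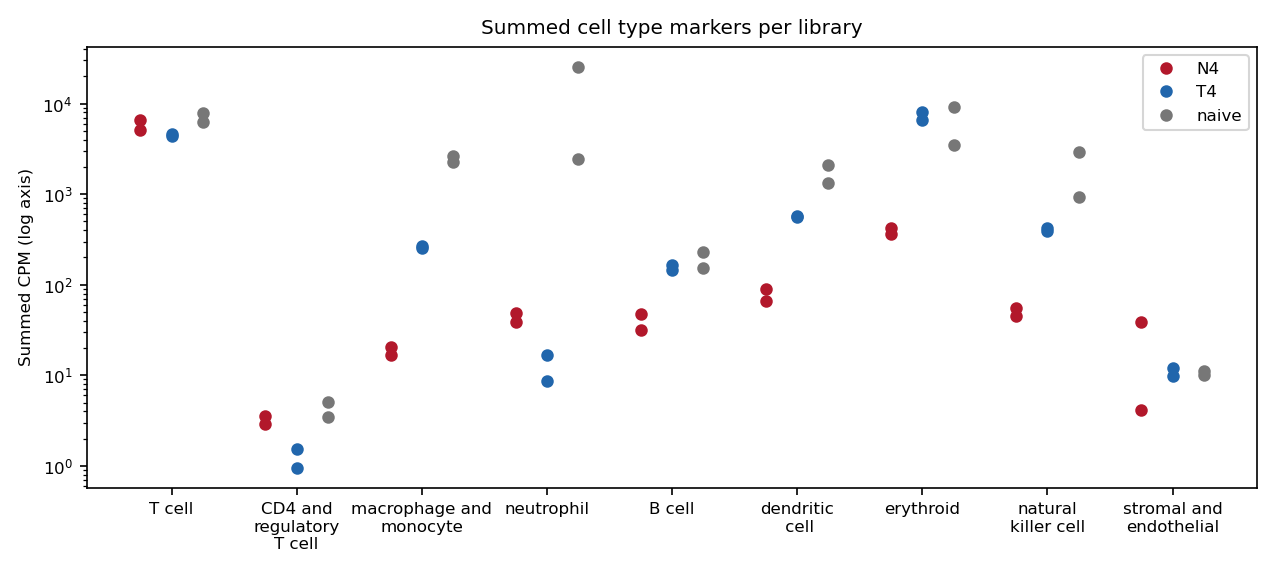
Summed CPM (log axis) of the marker lists of 9 cell types, 1 point per library. N4 libraries are lowest for macrophage, B cell, dendritic cell, erythroid and natural killer cell markers, and the naive libraries are highest for macrophage, neutrophil, dendritic cell and natural killer cell markers.

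Within the group of 10, levels across the 6 libraries did not all follow the same pattern, without a clean split. Fos had a Pearson r on log2 CPM of 0.86 with Junb and 0.87 with Ier2, beside 0.75 with Fosb and 0.74 with Jun. Egr1 had 0.73 with Junb and 0.85 with Ier2, beside 0.84 with Fosb. On log2 CPM, Fosb and Jun had a Pearson r of 0.96, Fos and Egr1 0.91, Jun and Egr1 0.91, and Junb and Ier2 0.97, while Junb and Jun had 0.40. Fosb and Jun were lowest in the naive libraries, and Junb and Ier2 in the N4 libraries. Jund correlated negatively with each of the other 9, with r from -0.75 to -0.46, though it stayed within 397 to 517 CPM. These r values rest on TMM scaling. The change of Jund in N4 against T4 was 0.20 with that scaling and -0.67 by library totals. Correlations were not computed with another scaling. The genes outside the group with the most like pattern, among 4934 genes of at least 3 mean log2 CPM, included Park7 (0.989) and Myl12a (0.987) for Fos; Prkca (0.988), Hspa1b (0.987) and Clybl for Fosb; and Slamf6 (0.997), Gtf2f2 and Fdps for Jun. They were Vps28, Zfand2b and Frat2 (0.998 each) for Junb, Baz2b (0.993), Tmem161b and Slc30a6 for Jund, Dcps (0.990), Itgb1bp1 and Ppp1r10 for Egr1, and Clta (0.998) and Gtf2h4 (0.996) for Ier2. For Fosl2 they were Chchd10 (0.996), Lsm4 and Gfer, for Egr2 Mtch1 (0.983), Ppa1 and Itpa, and for Egr3 Adh5 (0.979), Dcaf15 and Irf8. These values are a description over 6 libraries in 3 groups that share library totals and cell content, and with so few points high values arise for many genes.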

How the data were processed

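Polyadenylated RNA of 6 libraries, 2 each of N4, T4 and naive OT-I cells, was prepared with a SMARTer ultra-low input kit after miRNeasy extraction, per the labels' protocols. The authors deposited estimated counts per gene (55414) and per transcript (142435), as whole numbers and not normalized. The submitters' processing notes name the build mm39 and 5 tools without roles: StringTie 2.1.0, STAR 2.7.1a, DESeq2 1.30.1, SAMtools 1.9 and R 4.0.5. For the annotation release and the read length, nothing is given in the sources used. The scale of estimated counts can depend on that length, so totals are not taken as reads. Intervals cover counting error only. Symbols, transcript types and lengths came from GENCODE M21 models on GRCm38 (94.1% of gene identifiers and 97.1% of transcripts matched), a build other than that of the counts.

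Genes kept by filterByExpr (23003) were fitted with edgeR 4.0.16 (limma 3.58.1, R 4.3.3; DESeq2 1.42.0 as an alternative): TMM scaling, 1 mean per group, glmQLFit and glmQLFTest over all 6 libraries. The common biological coefficient of variation was 0.67, with 3.1 prior and 3 residual degrees of freedom. Replicate libraries differed by far more than sampling noise (chi-square per degree of freedom 118 to 2207), so none was merged. The procedure was tested on simulated counts, with 66 or 67 genes changed at each fold and none of the lowest expression. All other genes had the same mean in every group, and the spread was set by expression level alone. The procedure recovered 2.99% to 4.48% of 2-fold changes, 41.8% to 53.7% of 4-fold changes and 89.4% to 98.5% of 16-fold changes. There were 2 to 5 false calls per comparison. The spread of single genes was not simulated, so recovery in the data can be lower. A change that did not pass is therefore not shown to be absent. TPM were counts divided by transcript length, summed per gene and scaled per library.

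The members, the 15 other lists and the tests were chosen with earlier results of these data known. Named were all members, from each list 2 to 4 genes past the threshold by smallest p or else the 2 of smallest p, and the 3 genes of most like pattern per member (some are not reported here); others are marked as chosen after their values were seen. Alternatives were library total scaling, DESeq2 size factors and Wald test, no filter on low counts, only the 2 groups compared, GC content offsets, a replicate block, transcript shares by length, and leaving out each library.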

Additional observations from a re-analysis of the deposited data

How the results depend on the processing

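Among the 10 genes, the count higher in N4 against naive (1) was 0 by library total scaling or with only the 2 groups compared, and 2 with DESeq2's Wald test or no filter on low counts; the count lower (2) was 0 with only the 2 groups and 1 with GC content offsets. The count higher in T4 against naive (2) was 0 with DESeq2 size factors, only the 2 groups or GC content offsets, and 5 with the Wald test or no filter. Over all genes, N4 against naive (2772) gave 6246 by the Wald test, 4257 with no filter and 1044 with only the 2 groups. T4 against naive (27) gave 53 by library totals, 0 with DESeq2 size factors, only the 2 groups or GC content offsets, 1997 by the Wald test and 956 with no filter. N4 against T4 (1830) gave 5781 by the Wald test, 3834 with no filter, 5281 with only the 2 groups and 1071 with GC content offsets. The Wald test estimates the spread differently, and no filter tests 34879 genes; the causes were not tested. Of the genes called in the 3 comparisons, 40.4%, 70.4% and 43.8% were higher, against 28.1%, 79.2% and 15.6% by library totals, and 29.4% in N4 against T4 with GC content offsets.

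With the replicate block, 3 members were lower in N4 against naive (Ier2 added, -1.37, edgeR adjusted p = 0.038) and 7 in N4 against T4 (Fosl2 added, -1.64, edgeR adjusted p = 0.048), with 130 genes called in T4 against naive and 3367 in N4 against T4. Same-numbered libraries deviated together only weakly (r = 0.0174, 0.0372 and 0.0798), so the numbers were not taken to pair libraries. Leaving out 1 library gave 639 to 4487 genes for N4 against naive, 0 to 357 for T4 against naive and 0 to 4547 for N4 against T4, and 0 to 1, 0 to 4, 0 to 4 and 0 to 7 members for those higher and lower in N4 against naive, higher in T4 against naive and lower in N4 against T4.

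Reversals were limited to changes that had not passed. Jund in N4 against naive (0.01) was at -0.55 by library totals, -0.02 with DESeq2 size factors and by the Wald test, -0.13 with no filter, -0.10 with only the 2 groups, and -0.11, -0.09, -0.10 and -0.13 without N4 replicate 2, T4 replicate 1, T4 replicate 2 and naive replicate 1; by library totals it was at 0.12 in T4 against naive and -0.67 in N4 against T4. Egr3 in N4 against T4 was at 0.03 with GC content offsets and ran from -1.34 to 0.53 over the libraries left out; in N4 against naive it ran from -1.70 without N4 replicate 1 to 0.17 without N4 replicate 2. Over the libraries left out, Egr2 in N4 against T4 ran from -1.23 to 0.45, Egr1 in N4 against naive from -1.17 to 0.48, and Fosl2 in T4 against naive from -0.15 to 1.23. By length, Fos-201 held 96.0%, 91.7% and 93.8% in N4, T4 and naive, Fosl2-201 78.3%, 77.9% and 76.4%, Junb-201 99.0%, 98.9% and 99.8%, and Egr2-201 86.9% in T4. The low counts of Egr3 limit its precision.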
